A study of Rattus norvegicus with 2 samples.

Results

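The miRNAs miR-103 and miR-107 were followed in exosomal small RNA of cultured cardiomyocytes. The count table of the series has 635 rows, each a mature miRNA with its reads in 2 libraries. Rows named miR-103, miR-103-1, miR-103-2 or miR-107, of either arm, were taken as members, and 4 rows met this rule, namely mmu-miR-103-3p, mmu-miR-107-3p, mmu-miR-103-2-5p and mmu-miR-107-5p, written below without the prefix. Only the first 2 of these had at least 10 reads over both libraries, the minimum for a comparison. The prefix mmu stands for mouse, although the cells were rat cells, and every row of the table carries it.

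The exosomes came from primary heart cells of Wistar rats 1 to 2 days old, enriched for cardiomyocytes by adhesion and grown with bromodeoxyuridine. Cells without angiotensin II (Ang II) gave NC-Exo, exosomes of normal cardiomyocytes, and cells kept for 48 h with 1 μmol/L Ang II gave HC-Exo, exosomes of hypertrophic cardiomyocytes. The sources used here give serum starvation before treatment for both. There was 1 library per condition, so no difference below has a replicate check, and the tests compare these libraries and not the conditions. The library totals were 102608 miRNA reads (NC-Exo) and 133155 (HC-Exo), which makes a single read worth 9.75 RPM (reads for every 1000000 counted on miRNAs) for NC-Exo and 7.51 RPM for HC-Exo. All 6 miRNAs of a list of cardiomyocyte markers were listed, and they held 16.9% (NC-Exo) and 18.4% (HC-Exo) of all reads. The 2 endothelial markers, both arms of miR-126a, held 9.11% and 6.68%, and the 5 fibroblast and smooth muscle markers 3.83% and 3.91%. The endothelial arms went opposite ways, so their sum is not a common shift. Reads of miR-126a-5p, which make up most of that share, were 8875 (NC-Exo) and 8185 (HC-Exo), and those of miR-126a-3p 474 and 712. The rows of 4 of 5 blood markers (miR-144-3p was not listed) added up to 1.33% and 1.41%. These blood shares include both miR-486a-5p and miR-486b-5p, which had the same counts, 654 (NC-Exo) and 875 (HC-Exo). The same reads may thus be counted under both names, which would make the blood shares too high. Of the other blood markers, miR-451a had 17 (NC-Exo) and 35 (HC-Exo) reads and miR-223-3p 43 and 94, so the miR-486 rows hold most of the blood reads. The part of these other cell types in the values below was not tested.

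A mature miRNA guides Argonaute proteins to target mRNAs, mainly through the seed at its bases 2 to 8. The miR-103 and miR-107 genes lie in introns of the pantothenate kinase genes, whose enzymes start the synthesis of coenzyme A from vitamin B5. Both miRNAs are known as regulators of insulin sensitivity and lipid metabolism, with the membrane protein caveolin-1 among their targets. They are made from the 3p arm of their hairpins, and the 5p arm is the minor product.

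The mature sequences show how alike the members are and are therefore printed first. They are the rat sequences of RefSeq (build GRCr8), matched by name to 3 of the 4 rows, 5′ to 3′, with the seed in capitals.
miR-103-3p: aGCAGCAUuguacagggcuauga
miR-107-3p: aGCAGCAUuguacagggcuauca
miR-103-2-5p: aGCUUCUUuacagugcu
The 3p arms of miR-103 and miR-107 are both 23 bases long and differ by 1 substitution, G22C, counted from 1 at the 5′ end of miR-103-3p. Their first 21 bases, the seed included, are identical, so a read that ends before base 22 matches both. Among 692 rat mature names with a sequence, these 2 alone have this seed.

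The hairpins show that the shared sequence comes from 3 genes. In each line the mature 3p arm is in capitals, at bases 52 to 74.
Mir103a1: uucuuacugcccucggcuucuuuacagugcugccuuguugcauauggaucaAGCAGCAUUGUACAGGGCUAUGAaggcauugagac
Mir103a2: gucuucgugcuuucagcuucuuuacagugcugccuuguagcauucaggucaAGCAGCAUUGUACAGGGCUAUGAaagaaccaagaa
Mir107: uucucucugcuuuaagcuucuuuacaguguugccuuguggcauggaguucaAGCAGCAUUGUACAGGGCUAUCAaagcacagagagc
Mir103a1 is at chr10:20748474-20748559 on the plus strand of GRCr8, within the span of Pank3. Mir103a2 is at chr3:138963227-138963312 on the plus strand, within Pank2. Mir107 is at chr1:241750418-241750504 on the minus strand, within Pank1. Each hairpin is on the same strand as its host gene. The mature miR-103-3p of Mir103a1 and that of Mir103a2 are identical, so the row named miR-103-3p cannot be divided between Pank3 and Pank2. These positions are those of the rat reference, and the submitters' processing notes name only mouse builds.

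Both guide arms were scarce in the exosomes. Reads of miR-103-3p numbered 20 for NC-Exo and 15 for HC-Exo. As levels these are 195 RPM (95% exact Clopper-Pearson interval 119 to 301) against 113 RPM (63.1 to 186). Those of miR-107-3p numbered 14 and 16, or 136 RPM (74.6 to 229) and 120 RPM (68.7 to 195). All intervals here cover counting error only, because there is 1 library per condition. They also take each read as independent, which PCR copies of a molecule are not. In the order of reads, miR-103-3p stood at place 190 of the 635 rows for NC-Exo and place 250 for HC-Exo, and miR-107-3p at places 219 and 239. The most abundant row, the muscle miRNA miR-1a-3p, had 16614 and 23271 reads. In NC-Exo miR-103-3p was the higher member and in HC-Exo miR-107-3p was higher by 1 read, and in each library their intervals overlap.

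The minor arms were at the limit of detection. For miR-103-2-5p the table lists 0 reads (NC-Exo) and 2 reads (HC-Exo), and for miR-107-5p it lists the same 0 and 2. A count of 0 in NC-Exo allows up to 3 reads, or 29.2 RPM, so the libraries were not distinguishable at this depth and no ratio is given. The stretch of each hairpin most like miR-103-2-5p is printed next, with bases that differ from it in capitals.
Mir103a2: agcuucuuuacagugcu
Mir107: agcuucuuuacagugUu
Mir103a1: Ggcuucuuuacagugcu
Mir107 differs from miR-103-2-5p by C16U and Mir103a1 by A1G, counted from its 5′ end. The 2 reads of each 5p row in HC-Exo could therefore be the same reads, which the counts do not tell.

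**Figure D1:**
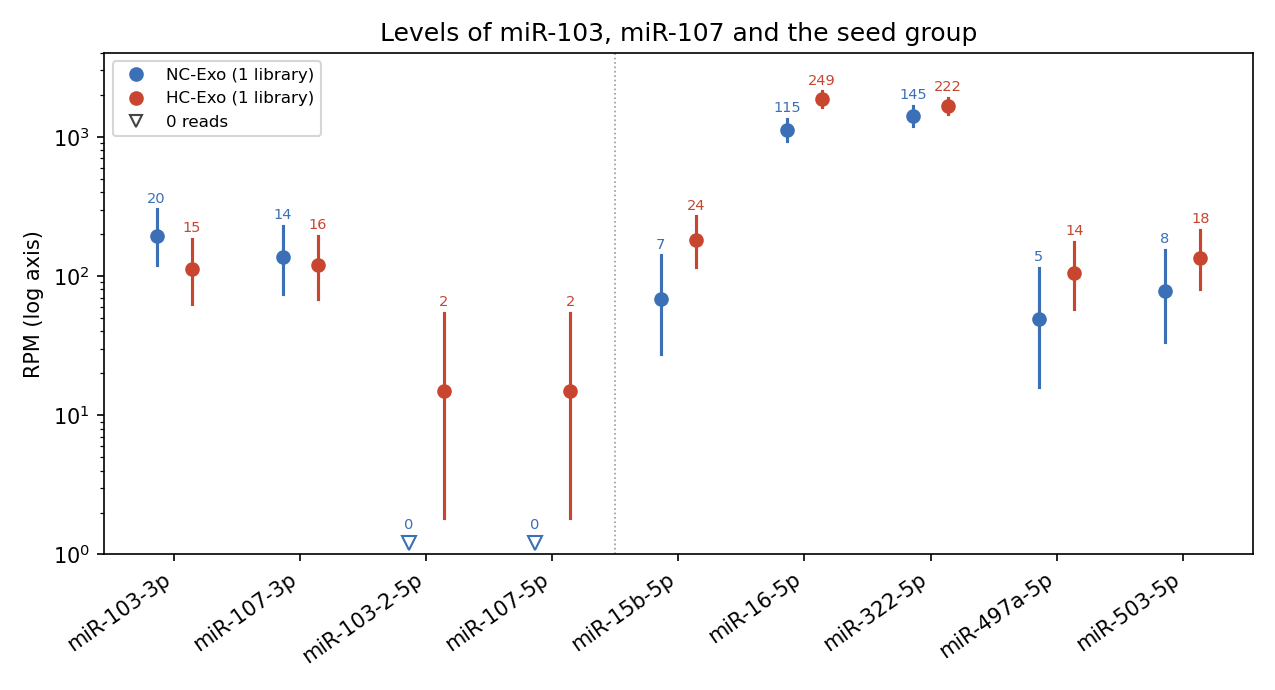
Level in RPM (log axis) of the member rows, left of the dotted line, and of the tested miRNAs of the seed group, right of it, in the NC-Exo and HC-Exo libraries. Points are single libraries, bars are 95% exact Clopper-Pearson intervals, the number at each point is its read count, and open triangles mark 0 reads. For both 3p members the bars of the libraries overlap, while miR-16-5p rises from 115 to 249 reads.

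Each member was then compared between the libraries, as its RPM of HC-Exo divided by that of NC-Exo. For miR-103-3p it was 0.578 (95% exact interval 0.275 to 1.19), a log2 ratio of -0.79 (-1.86 to 0.25). The two-sided exact binomial test of its 35 reads gave p = 0.125, and the Benjamini-Hochberg adjusted p over the 340 miRNAs with at least 10 reads was 0.288. For miR-107-3p the ratio was 0.881 (0.403 to 1.95), or -0.18 on the log2 scale (-1.31 to 0.96, exact binomial p = 0.718 and adjusted p = 0.850). Neither member passed the threshold, and both intervals include equal levels. A call required a log2 ratio of 1 or more in size besides an adjusted p-value below 0.05. This was met by 4.71% of the 340 miRNAs, 9 upward and 7 downward in HC-Exo, and by 0 of the 2 members tested. With upper-quartile scaling the split of all calls was 5 higher and 7 lower. An adjusted p-value under 0.05 alone held for 22.4% of the 340 (13.8% higher and 8.53% lower in HC-Exo) and again for 0 of the 2 members, whose unadjusted p-values were also above 0.05 in the exact binomial test and in edgeR's exact test.

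The small number of reads set what could have passed. Of the 35 reads of miR-103-3p, 19.8 would fall in HC-Exo at equal levels, and the adjusted threshold, an unadjusted p of 0.0108 in this table, needed 12 or fewer (log2 ratio -1.31) or 28 or more (1.62). Of the 30 reads of miR-107-3p, 9 or fewer (-1.60) or 24 or more (1.62) were needed. A smaller difference was not detectable at this depth.

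Among the miRNAs tested, the median log2 ratio was 0.10, and 191 of 340 were above 0. The log2 ratio of miR-103-3p was lower than that of most, with 23 of the 340 (6.76%) below it. For miR-107-3p, 106 (31.2%) were below. Of the 66 miRNAs with 25 to 50 reads over both libraries, the range that holds both members, the median log2 ratio was 0.30 and the 10th to 90th percentiles were -0.70 to 1.36. In that range 4 were below miR-103-3p, 19 were below miR-107-3p, and 6 of the 66 were called.

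**Figure D2:**
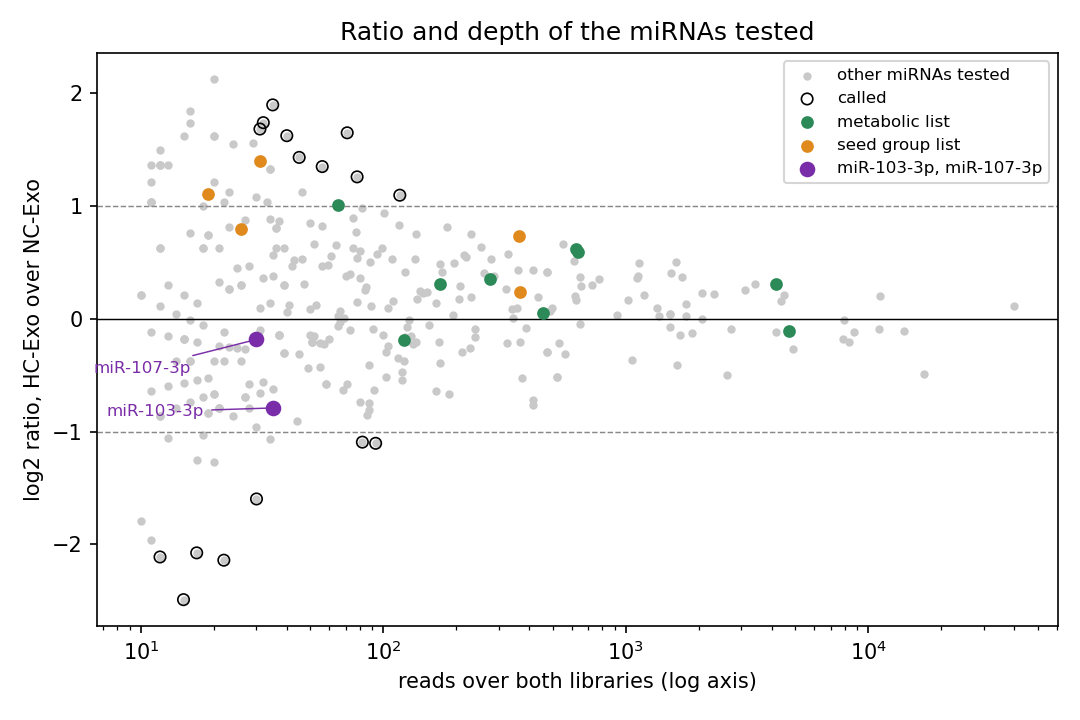
Log2 ratio (HC-Exo/NC-Exo) against the reads over both libraries (log axis) for the 340 miRNAs tested, each point a miRNA. Open circles mark the 16 called miRNAs, dashed lines log2 ratios of -1 and 1, and colours the members and the fixed lists, with miR-122-5p hidden under miR-107-3p. Both members lie below 0 and inside the dashed lines, at 35 and 30 reads.

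Whether the members moved apart was tested on their own reads, which needs no scaling. Of the reads of the pair, miR-107-3p held 14 of 34, or 41.2% (95% exact interval 24.6 to 59.3%), in the NC-Exo library and 16 of 31, or 51.6% (33.1 to 69.8%), in the HC-Exo library. The log2 ratio of miR-107-3p was 0.61 above that of miR-103-3p, with an interval of -0.97 to 2.19 (two-sided Fisher's exact test, p = 0.460). This interval is wide, so the ratios of the members can be called neither different nor alike. The shares and the test also take each read as counted in 1 row only, which the counts do not tell.

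Reads shared by both rows bear on their sum. If no read was counted under both names, the pair had 34 reads (NC-Exo) and 31 reads (HC-Exo), which is 0.0331% and 0.0233% of the miRNA reads. The ratio of these sums was 0.703 (0.418 to 1.18), a log2 ratio of -0.51 (-1.26 to 0.24). If every read of the smaller row was also counted in the larger row, an alternative added after the values were seen, there were 20 and 16 distinct reads and the log2 ratio was -0.70 (-1.74 to 0.32). The distinct reads of the pair thus number between 20 and 34 for NC-Exo and between 16 and 31 for HC-Exo. Both ratios were below 1 and both intervals include 1.

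Other rows were looked at for how this table treats near-identical miRNAs. The names of 312 rows matched a rat sequence, and among those with at least 10 reads there were 13 pairs of equal length that differed by a single base, the pair of miR-103-3p and miR-107-3p included. These pairs were looked up after the counts were seen. Among the 13, only miR-101a-3p and miR-101b-3p (A16G) had identical counts, each with 12 and 9 reads. Rows of identical sequence were not among the 13 pairs. Beyond these pairs, miR-486a-5p and miR-486b-5p each had 654 (NC-Exo) and 875 (HC-Exo) reads. Likewise, miR-199a-3p and miR-199b-3p each had 174 and 301. Equal rows were also seen for other related names, and these are examples and not a full list. They were let-7a-1-3p and let-7c-2-3p (230 and 243), miR-669a-3p and miR-669o-3p (274 and 248), and miR-374b-5p and miR-374c-5p (31 and 27). The row of miR-101c had the counts of the miR-101 pair, 12 and 9. Whether such equal rows hold the same reads was not tested. In 3 of the 13 pairs the rows were within 10% of each other in both libraries. These were the miR-101 pair, miR-23a-3p with miR-23b-3p, and miR-27a-3p with miR-27b-3p. The rows of miR-27a-3p held 208 and 414 reads and those of miR-27b-3p 215 and 420. The gap between miR-103-3p and miR-107-3p was 6 reads for NC-Exo, 30% of the larger row, and 1 read for HC-Exo, or 6.25%. The pair of miR-133a-3p and miR-133b-3p also differs near the 3′ end, at the last base (G22A), and its rows held 417 and 215 reads for NC-Exo and 694 and 397 for HC-Exo. Counts that differ show that the rows do not hold the same set of reads, but leave room for a shared part.

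**Figure D3:**
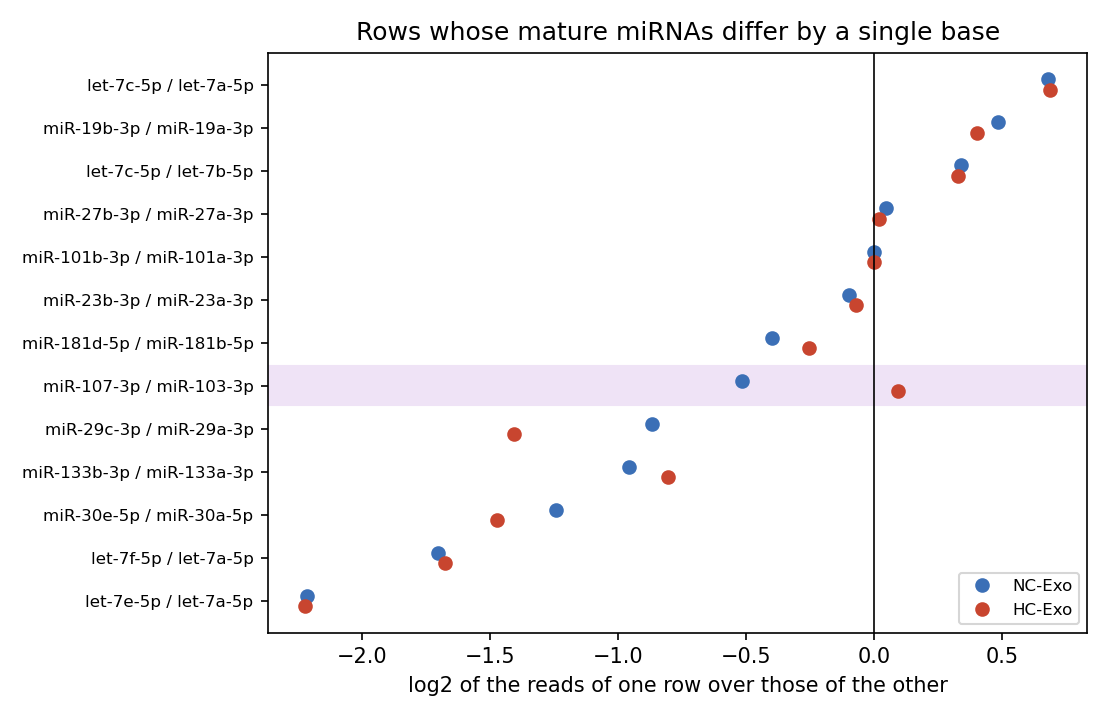
Log2 of the reads of a row over those of its partner, by library, for the 13 pairs of rows whose rat mature sequences differ by a single base. Points are single libraries, 0 marks equal counts, and the shaded row is miR-107-3p over miR-103-3p, at -0.51 for NC-Exo and 0.09 for HC-Exo.

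Identical counts also arose between unrelated names at this depth. The counts of miR-107-3p, 14 and 16, were also those of 2 other rows, the liver miRNA miR-122-5p and miR-193b-3p. With miR-330-3p (14 and 17 reads) these were the 3 rows nearest to miR-107-3p by the distance of their log2 RPM over the 2 libraries. The 3 rows nearest to miR-103-3p were miR-152-3p with 19 and 16 reads, miR-125b-1-3p with 21 and 13, and miR-1198-5p with 17 and 15. In NC-Exo miR-103-3p was tied with miR-1a-1-5p, and miR-152-3p and miR-199a-5p were among the 4 rows just below it. Rows next to a member in NC-Exo need not be near it in HC-Exo, since miR-199a-5p had 19 and 59 reads and miR-206-3p, tied with miR-107-3p in NC-Exo, had 14 and 57, and both were called higher in HC-Exo. With 2 libraries the likeness of the nearest rows is a matter of level and ratio alone.

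The miR-15 and miR-16 family, with miR-322, miR-497 and miR-503, is commonly grouped with miR-103 and miR-107, for the letters AGCAGC near the 5′ end. Of the 692 rat mature names, 10 (1.45%) hold these letters anywhere, 8 of them starting at base 1 or 2. In the relatives printed next this stretch starts at base 2 and not at base 1, which gives another seed. They are known as brakes on the cell cycle. The sequences of the 4 rows matched are shown, with the seed in capitals, to set them against miR-103-3p.
miR-15b-5p: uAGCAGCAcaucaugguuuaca
miR-16-5p: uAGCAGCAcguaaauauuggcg
miR-322-5p: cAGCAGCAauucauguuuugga
miR-503-5p: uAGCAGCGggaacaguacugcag

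Of 12 names on this list, 8 were in the table and 5 had at least 10 reads. All 5 had log2 ratios above 0, with a median of 0.79 against 0.10 over all 340, and 0 of the 5 were called. The median is the value of miR-503-5p. This miRNA, miR-15b-5p and miR-497a-5p reached 10 reads only through HC-Exo, so the minimum itself favoured values above 0 for them. The median was 0.49 over miR-16-5p and miR-322-5p, the 2 of the 5 that had at least 10 reads in each library. With adjusted p alone, miR-16-5p was higher in HC-Exo, its log2 ratio from 115 and 249 reads being 0.74 with an interval of 0.41 to 1.07 (exact binomial test, adjusted p = 5.93e-05). For miR-15b-5p, 7 and 24 reads gave 1.40 (0.14 to 2.86) on the log2 scale, which did not pass (exact binomial test, adjusted p = 0.0720). The others were miR-322-5p, the rodent counterpart of miR-424, at 145 and 222 reads, miR-497a-5p at 5 and 14, and miR-503-5p at 8 and 18. Another 3 rows, miR-15a-5p, miR-195a-5p and miR-195b, had 2 to 9 reads over both libraries.

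The members were compared with these 5 miRNAs by Fisher's exact test, adjusted over 10 comparisons that were added after the values were seen. The log2 ratio of miR-103-3p was lower than that of miR-15b-5p by a difference of -2.19 (-3.98 to -0.48, Fisher's exact test, adjusted p = 0.0296). It was also lower than that of miR-16-5p, with a difference of -1.53 (-2.65 to -0.43, Fisher's exact test, unadjusted p = 0.00431). The adjusted p of this comparison was also 0.0296, a value set by the miR-15b-5p comparison (Fisher's exact test, unadjusted p = 0.00592) through the adjustment. None of the remaining 8 comparisons passed, and they include all 5 of miR-107-3p, whose difference from miR-16-5p was -0.92 (-2.10 to 0.28, Fisher's exact test, adjusted p = 0.151). These tests cover counting error only, and the higher ratios of the partners were known before they were run. With 7 reads in NC-Exo, miR-15b-5p reached the minimum of 10 only through its 24 reads in HC-Exo. The same holds for miR-497a-5p (5 and 14) and miR-503-5p (8 and 18). The comparisons with these partners therefore cannot serve as evidence of a difference. The comparison with miR-16-5p was added with its higher ratio known, so it is not independent evidence either.

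The members were also set beside miRNAs with known roles in lipid or glucose metabolism. Of 13 on that list, 11 were in the table and 10 had at least 10 reads, 7 with log2 ratios above 0 and 3 below, with a median of 0.31, against 191 of 340 above 0 and a median of 0.10 over all miRNAs tested. With upper-quartile scaling, which lowers every log2 ratio by the same amount, the list's median was 0.19 and that of all 340 was -0.03. None was called at both thresholds, and by adjusted p alone 3 of the 10 were higher in HC-Exo and 1 was lower, where 13.8% and 8.53% of the 340 were. The higher ones were miR-27a-3p (log2 ratio 0.62), miR-27b-3p (0.59), whose nearly equal rows are described above, and the smooth muscle miRNA miR-143-3p (0.31, 1596 and 2571 reads). The lower one was miR-378a-3p, which comes from the gene of the mitochondrial coactivator Ppargc1b, where 2138 and 2568 reads gave -0.11 on the log2 scale (-0.19 to -0.03, exact binomial test, adjusted p = 0.0401). The remaining tested miRNAs were the arm miR-378a-5p (0.05), miR-29a-3p (0.35), miR-29b-3p (1.01), miR-29c-3p (-0.19), miR-34a-5p (0.31) and miR-122-5p (-0.18), none past the adjusted threshold. In HC-Exo the level of miR-378a-3p was 19286 RPM, against 113 RPM for miR-103-3p and 120 RPM for miR-107-3p.

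**Figure D4:**
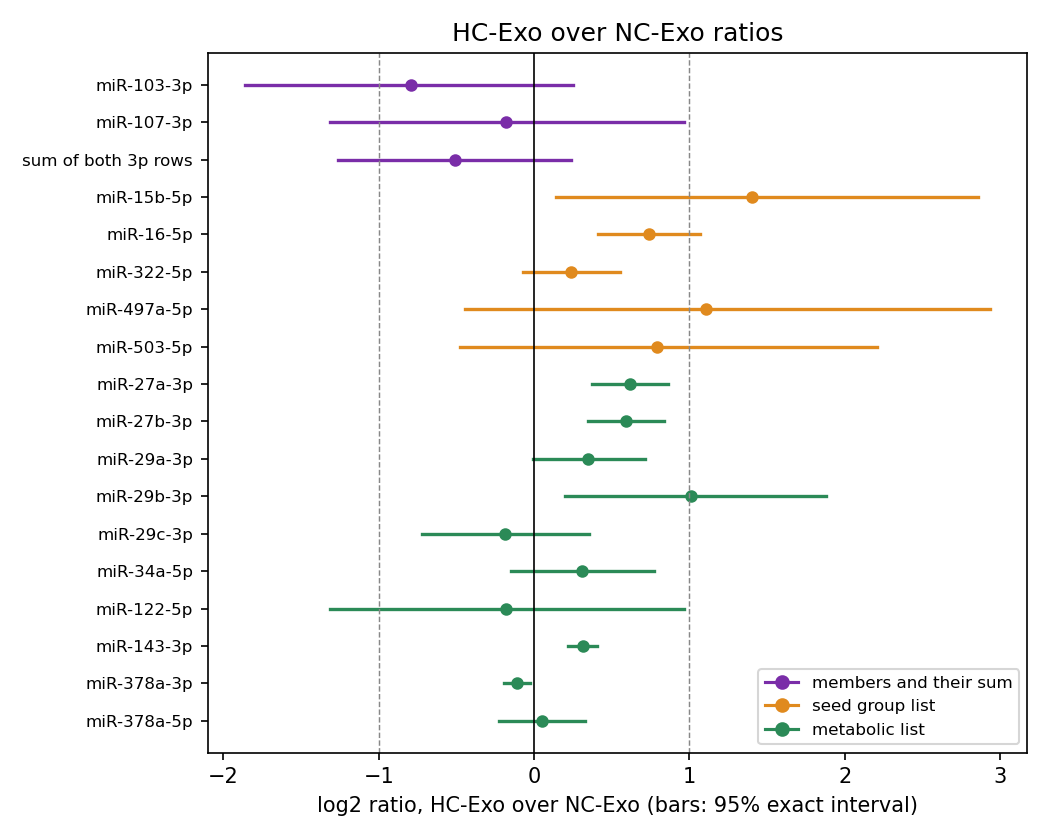
Log2 ratio (HC-Exo/NC-Exo) with its 95% exact interval for the 2 members and the sum of their rows, the 5 tested miRNAs of the seed group and the 10 tested metabolic miRNAs. Points are ratios of single libraries, and dashed lines mark -1 and 1. The intervals of the members and of their sum cross 0, and that of miR-16-5p lies above 0.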

How the data were processed

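The authors deposited raw counts of reads per mature miRNA for 1 NC-Exo and 1 HC-Exo library, made with an Illumina small RNA kit. The submitters' processing notes name Bowtie2 and the mouse builds mm9 and GRCm38 without a role. Trimming, the miRNA reference, allowed mismatches and the treatment of reads that match several miRNAs are not given in the sources used here, and each bears on how reads of miR-103-3p and miR-107-3p were divided. The deposited normalized values and the authors' own comparison (fold changes, p-values and q-values) were not used.

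Counts were divided by library totals. Rows with at least 10 reads over both libraries were compared between libraries by the exact binomial test (two-sided) with Benjamini-Hochberg adjustment, which was tested on simulated data. The simulation held counting error only, with no spread between replicate libraries and no shift in scaling, so it says nothing about those limits. Counts of 3 or fewer were set at 3 for ratios. Pairs of rows were compared by Fisher's exact test. Alternatives were other scalings, filters, pseudocounts, edgeR's exact test with an assumed spread, and an assumed misassignment of reads. Values were given for the members, listed miRNAs with at least 10 reads, the 3 rows nearest to each 3p member and rows beside them in order. Members and lists were chosen with earlier results of these data known. Sequences came from RefSeq (GRCr8). Tools were Python 3.11.15, scipy 1.17.1, numpy 2.4.6, pandas 2.3.3, matplotlib 3.10.9, R 4.3.3, edgeR 4.0.16 and DESeq2 1.42.0.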

Additional observations from a re-analysis of the deposited data

How the results depend on the processing

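No paired analysis was possible because each condition has a single library, which also leaves no replicate to omit. The log2 ratio of miR-103-3p stayed between -0.91 and -0.70 over 11 alternatives and that of miR-107-3p between -0.31 and -0.18 over 12, with adjusted p-values of 0.225 to 1 and 0.746 to 1, so neither was called under any of them. Not all of these could move both values. The filters and edgeR's test leave the ratio unchanged by design, and the pseudocounts and the assumed misassignment keep the main adjusted p. A filter of 50 reads over both libraries leaves both members out. Taking 1% of the miR-103-3p reads off miR-107-3p removes less than 1 read and tests little. The sum of the pair stayed between -0.70 and -0.54. Over all miRNAs, 16 were called, against 8 with at least 10 reads in each library and 7 with at least 50 over both, where fewer miRNAs were tested. With edgeR's exact test and an assumed coefficient of variation of 0.1, 0.2 or 0.4, 0 were called (55, 20 and 1 at an unadjusted p under 0.05), since the spread is allowed for. The seed group median was 0.49 with either of these filters, which leave 2 of its 5 miRNAs. The metabolic list median of 0.31 was 0.24 with TMM, 0.19 with upper-quartile scaling and 0.21 with totals without the 10 most abundant miRNAs. Upper-quartile scaling shifts each log2 ratio by -0.12. The 30 and 35 reads of the members limit what could be called, as does the lack of replicates.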

Other observations

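Within the seed group the minor arms were not always the rarer ones. The 3p arm of miR-15b had 47 (NC-Exo) and 88 (HC-Exo) reads, against 7 and 24 for miR-15b-5p. That of miR-503 had 207 and 282 reads, against 8 and 18 for miR-503-5p. The arms of miR-322 were nearly level, with 142 and 196 reads for miR-322-3p against 145 and 222 for miR-322-5p. In contrast, miR-16-2-3p had 3 and 13 reads against 115 and 249 for miR-16-5p. For miR-107 the 3p arm had 14 and 16 reads and the 5p arm 0 and 2. These rows were chosen after their values were seen, and no difference between arms was tested.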
